A study of Homo sapiens with 20 samples.

Results

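The dual-specificity MAP kinase phosphatases described here are 9 genes, DUSP1, DUSP2, DUSP4, DUSP5, DUSP6, DUSP8, DUSP10, DUSP14 and DUSP16, chosen by symbol out of 19775 named genes on the array. They were read by 20 probe sets in all, and 6 of the genes had more than 1. RNA was measured on Affymetrix HG-U133 Plus 2.0 arrays in Caco-2 cells, which derive from a human colon tumour, form an enterocyte-like layer once confluent and here had been differentiated on culture inserts for 5 days. In the probiotic set, 2 arrays each were made from cells given live Lactobacillus acidophilus NCFM, live Bifidobacterium lactis 420 or live Lactobacillus salivarius Ls-33, 20 to 100 of them to each Caco-2 cell, during 8 h. A further 2 arrays each came from cells given the cell-free supernatant of NCFM, 420 or Ls-33 for 24 h at 10% of the medium volume, and 2 from cells kept in medium alone for 8 h. In the E. coli set, 3 arrays came from cells given 5% cell-free supernatant of Escherichia coli O157:H7 for 24 h, and 3 from cells in medium alone for 24 h. The sets were labelled from 5 µg and 1 µg of RNA, the broth behind the bacteria was MRS for the probiotics and LB with 1% glucose for E. coli, and no group here received broth alone. The labels describe the probiotic arrays as duplicates without naming separate cultures, so the p-values measure the spread between arrays. The only medium group of the probiotic set was taken at 8 h, so in its supernatant comparisons treatment and the time difference cannot be told apart.

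These phosphatases remove phosphate from both the threonine and the tyrosine of an activated MAP kinase and so switch it off. Many are encoded by immediate early or delayed early genes that the same kinases induce, which makes their transcripts a part of negative feedback. DUSP1, DUSP2, DUSP4 and DUSP5 are nuclear enzymes, of which DUSP5 is selective for ERK; DUSP6 is cytoplasmic and prefers ERK; DUSP8, DUSP10 and DUSP16 act mainly on the stress kinases JNK and p38. DUSP14 is a small atypical member without the kinase-binding domain of the others. In intestinal epithelium, ERK carries signals of growth factor receptors, while p38 and JNK carry those of bacterial products, cytokines and other stresses.

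The promoters of 3 members are shown. The cyclic AMP response element, a motif through which DUSP1 is known to be induced, was found in 2 of them. The other belongs to DUSP6. On the probe sets tested, DUSP6 shared the direction of DUSP1 in the probiotic set but not in the E. coli set. The windows are the 250 bases before the annotated start in RefSeq (GRCh38.p14), on the minus strand: chr5:172771196-172771445 for DUSP1, chr11:1572272-1572521 for DUSP8 and chr12:89352502-89352751 for DUSP6. Capitals mark the cyclic AMP response element.
DUSP1: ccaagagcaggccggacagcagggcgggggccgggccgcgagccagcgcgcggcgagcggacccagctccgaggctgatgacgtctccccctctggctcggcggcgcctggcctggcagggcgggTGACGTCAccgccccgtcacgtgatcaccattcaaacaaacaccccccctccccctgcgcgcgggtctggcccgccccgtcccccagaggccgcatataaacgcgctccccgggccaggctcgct
DUSP8: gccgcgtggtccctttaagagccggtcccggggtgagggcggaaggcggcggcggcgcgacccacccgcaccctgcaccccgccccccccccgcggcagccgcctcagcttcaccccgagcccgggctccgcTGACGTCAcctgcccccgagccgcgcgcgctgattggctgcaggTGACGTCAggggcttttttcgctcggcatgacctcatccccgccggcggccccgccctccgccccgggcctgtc
DUSP6: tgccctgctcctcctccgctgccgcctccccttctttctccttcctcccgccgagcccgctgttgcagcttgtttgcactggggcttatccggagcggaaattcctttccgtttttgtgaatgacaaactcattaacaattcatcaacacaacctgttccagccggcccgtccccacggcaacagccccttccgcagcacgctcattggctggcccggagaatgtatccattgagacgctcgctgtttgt
The motif TGACGTCA began 125 bases before the start of DUSP1, and 118 and 74 bases before the start of DUSP8. It lay in 1.85% of 35116 RefSeq promoter windows of 300 bases (250 before and 50 after the start). Searched on both strands were also AP-1 (TGANTCA, in 7.71% of windows), EGR (GCGTGGGCG, in 0.795%), the CArG box (in 1.29%) and the kappaB motif (in 5.91%), and none of these letters were present in the 8 windows available for 7 members. The AP-1 and cyclic AMP element letters differ in length and cannot match the same bases. DUSP2, DUSP10, DUSP14 and DUSP16 were the other members searched, and none of them held the cyclic AMP element. Of these, DUSP14 and DUSP16 rose 3.93-fold and 3.50-fold with E. coli supernatant. DUSP8 changed by 0.48, 0.64 and 0.34 (log2) with NCFM, 420 and Ls-33 cells, called with 420 only. DUSP1 changed there by -0.63, -0.61 and -0.76. Whether the motif goes with any of these changes was not tested.

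Values are log2 signals made by the authors with RMA, so a difference of 1 is a doubling of signal. Levels of different genes are not set against each other, because probe sets differ in brightness. Where all arrays of a group lay on the same side of medium, this is given as a description. Groups as small as those of the probiotic set often separate by chance, and the share of all genes doing so was not counted. A gene was tested where its mean signal in an array set was at or above the 40th percentile of named genes (2.74 in the probiotic set, 2.78 in the E. coli set), and a change was called at a limma adjusted p under 0.05. Of the 9 members, 8 passed in the probiotic set, DUSP2 being the exception, and 9 passed in the E. coli set. Of the 12 enterocyte markers, 11 lay above this floor on all 20 arrays, including villin and the cadherins CDH1 and CDH17, and APOA1 on 14 arrays. Of 10 measured leukocyte, fibroblast and endothelial markers, PTPRC, CD3E, DCN and VWF lay under it on all 20 arrays and PDGFRB on some (above it on 13). The other 5 lay above it on all, with LUM at 10.97 to 11.98, COL1A1 at 10.23 to 11.43, PECAM1 at 7.26 to 9.26, COL3A1 at 5.25 to 7.06 and CD14 at 3.71 to 4.86 (log2), so fibroblast and endothelial markers stood on both sides of the floor. In these bulk samples, less RNA per cell and fewer cells with the transcript cannot be told apart.

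**Figure D1:**
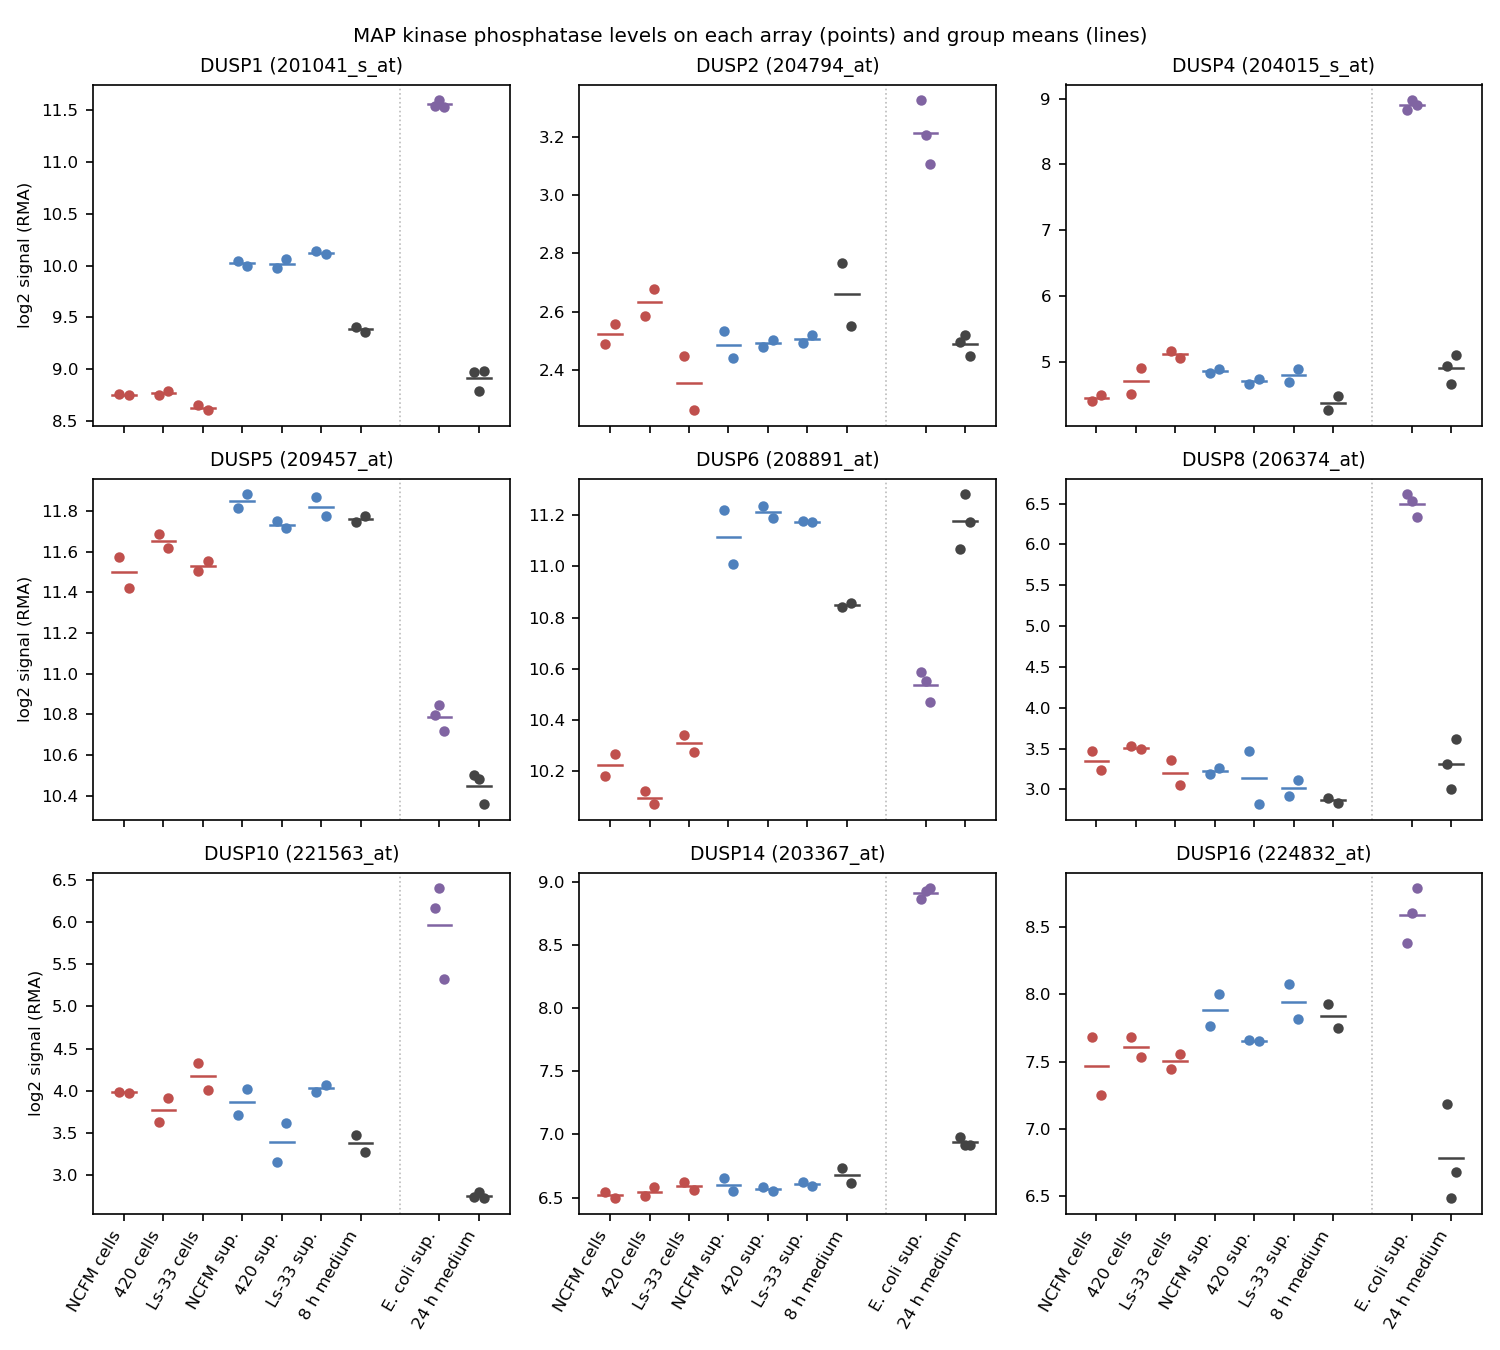
Signal of each MAP kinase phosphatase on every array (points; vertical axes, log2 RMA signal, with a different range for each gene) and the group mean (lines), for co-cultures, probiotic supernatants and 8 h medium left of the dotted line and for E. coli supernatant and 24 h medium right of it. DUSP1 read 11.53 to 11.59 with E. coli supernatant, against 8.79 to 8.98 in 24 h medium, and DUSP6 read 10.47 to 10.59 against 11.07 to 11.28.

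Live bacteria were compared with medium at 8 h, matched in time. DUSP1 and DUSP6 fell with each of the 3 strains, DUSP5 fell with 2, DUSP10 rose with 2, and DUSP8, DUSP4 and DUSP16 were each called with 1. With NCFM cells 5 of 8 tested members were called, 1 higher and 4 lower, where 35.3% of 11865 tested genes were called (16.8% higher and 18.4% lower). With B. lactis 420 cells 3 members were called, 1 higher and 2 lower, against 35.3% of tested genes (18.3% higher and 16.9% lower). With Ls-33 cells 5 were called, 2 higher and 3 lower, against 38.7% (19.4% higher and 19.3% lower). Over the 8 tested members the median change was -0.21, -0.12 and -0.16 with NCFM, 420 and Ls-33 cells, against -0.01, 0.01 and -0.01 over the tested genes.

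DUSP1, the nuclear phosphatase for p38, JNK and ERK that stress and mitogens induce, read 8.76 and 8.75 with NCFM cells, 8.75 and 8.80 with 420 cells and 8.65 and 8.61 with Ls-33 cells, against 9.41 and 9.36 in 8 h medium (probe set 201041_s_at, log2). Every one of the 6 co-culture arrays was below the medium pair, and the Ls-33 arrays were the lowest. The changes in DUSP1 were -0.63, -0.61 and -0.76 with NCFM, 420 and Ls-33 cells, each ± 0.067 (SE), with limma adjusted p-values of 5.03e-07, 6.86e-07 and 2.92e-08. These are levels 1.55-fold, 1.53-fold and 1.69-fold lower than in medium. A second DUSP1 probe set, 201044_x_at, changed by -0.75, -0.64 and -0.82 and was called with each strain. The third, 226578_s_at, lay near the bottom of the scale in every group and was not called in any.

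DUSP6, the cytoplasmic ERK phosphatase whose transcript is widely used as a readout of ERK activity, read 10.18 and 10.27 with NCFM cells, 10.12 and 10.07 with 420 cells and 10.34 and 10.28 with Ls-33 cells, against 10.84 and 10.86 in 8 h medium (probe set 208891_at, log2). The groups did not overlap. The changes in DUSP6 were -0.62, -0.75 and -0.54, each ± 0.063 (SE; limma adjusted p = 2.51e-07, 1.76e-08 and 1.27e-06). The other probe sets of DUSP6 gave larger falls. For 208892_s_at they were -0.95, -1.07 and -0.84, and for 208893_s_at -1.94, -1.57 and -1.46. On 208893_s_at DUSP6 read 7.09 and 6.98 with NCFM cells, 7.10 and 7.70 with 420 cells and 7.24 and 7.78 with Ls-33 cells, against 8.95 and 9.0 in medium. The fall in DUSP6 with NCFM cells was thus 1.54-fold, 1.93-fold or 3.84-fold depending on the probe set.

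DUSP5, the nuclear ERK phosphatase, read 11.58 and 11.42 with NCFM cells, 11.69 and 11.62 with 420 cells and 11.51 and 11.55 with Ls-33 cells, against 11.75 and 11.78 in 8 h medium. All co-culture arrays were below both medium arrays, but the changes were small. DUSP5 fell by 0.26 with NCFM cells and by 0.23 with Ls-33 cells (limma adjusted p = 6.78e-04 and 0.00169), and its change of -0.11 with 420 cells was not called (adjusted p = 0.118).

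DUSP10, a phosphatase for p38 and JNK, read 3.99 and 3.97 with NCFM cells, 3.62 and 3.92 with 420 cells and 4.33 and 4.01 with Ls-33 cells, against 3.47 and 3.27 in 8 h medium (probe set 221563_at, log2). Both arrays of each co-culture lay above the medium arrays, at low signal. DUSP10 rose by 0.61 with NCFM cells and 0.80 with Ls-33 cells (each ± 0.193 SE, limma adjusted p = 0.0195 and 0.00277), and its change of 0.40 with 420 cells was not called (adjusted p = 0.119). The DUSP10 call with NCFM cells was lost without medium replicate 2 (change 0.51, adjusted p = 0.129) and without NCFM co-culture replicate 1 or 2 (adjusted p = 0.0689 and 0.0633). That with Ls-33 cells was lost without Ls-33 co-culture replicate 1 (change 0.63, adjusted p = 0.0501). The second DUSP10 probe set, 215501_s_at, changed by 0.65, 0.39 and 0.66, and was called with NCFM and Ls-33 cells (adjusted p = 0.0301 and 0.0285).

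DUSP8, which acts on JNK and p38, read 3.53 and 3.49 with 420 cells, against 2.90 and 2.84 in 8 h medium (probe set 206374_at, log2). The change in DUSP8 with 420 cells was 0.64 (limma adjusted p = 0.0132), and with NCFM and Ls-33 cells it was 0.48 and 0.34 (adjusted p = 0.0566 and 0.178). The call was lost without medium replicate 2 (adjusted p = 0.0687) or 420 co-culture replicate 1 (adjusted p = 0.0639), and probe set 238594_x_at of DUSP8 changed by -0.42 with 420 cells (adjusted p = 0.0577). DUSP4, a nuclear phosphatase for ERK, JNK and p38, read 5.16 and 5.06 with Ls-33 cells, against 4.26 and 4.47 in 8 h medium (probe set 204015_s_at, log2). The change in DUSP4 was 0.74 ± 0.177 (SE) with Ls-33 cells (limma adjusted p = 0.00246) and 0.08 and 0.34 with NCFM and 420 cells (adjusted p = 0.768 and 0.151). With Ls-33 cells its probe set 226034_at changed by 0.43 (adjusted p = 0.0464) and 204014_at by 0.49, not called (adjusted p = 0.21). These probe sets changed by -0.26 and -0.08 with NCFM cells and by 0.18 and 0.25 with 420 cells, none called.

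DUSP16, a phosphatase for JNK and p38 that shuttles between nucleus and cytoplasm, read 7.69 and 7.25 with NCFM cells, against 7.93 and 7.75 in 8 h medium (probe set 224832_at, log2). The change of -0.37 was called (limma adjusted p = 0.0413), but DUSP16 kept this call in only 3 of 11 other settings, and without NCFM co-culture replicate 2 the change was -0.16 (adjusted p = 0.461). Without medium replicate 1 or 2 it was -0.28 and -0.46 (adjusted p = 0.241 and 0.0533). DUSP16 changed by -0.23 and -0.34 with 420 and Ls-33 cells, neither called. Its probe set 224336_s_at went the other way there, by 0.47 and 0.35, with all arrays above medium and neither called (adjusted p = 0.0687 and 0.179). DUSP14 lay within 6.50 and 6.62 on all 6 co-culture arrays, against 6.74 and 6.62 in medium, and its changes of -0.15, -0.13 and -0.08 were not called. DUSP2, a nuclear phosphatase best known from activated leukocytes, read 2.26 to 2.68 on the co-culture arrays, against 2.77 and 2.55 in medium. Of these arrays 1, in medium, lay above the floor, and DUSP2 was not tested. Beside these differences, the 3' minus 5' signal of the beta-actin controls, a sign of RNA integrity and labelling, was 1.08 to 1.54 on co-culture arrays, against 0.80 to 0.88 on the medium arrays. The summed signal (log2) of the 10 leukocyte, fibroblast and endothelial markers was 12.27 to 12.53 on co-culture arrays, against 12.27 to 12.35 in medium, and that of the 12 enterocyte markers was 15.63 to 15.78, against 15.67 to 15.73. Their part in the results was not tested.

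**Figure D2:**
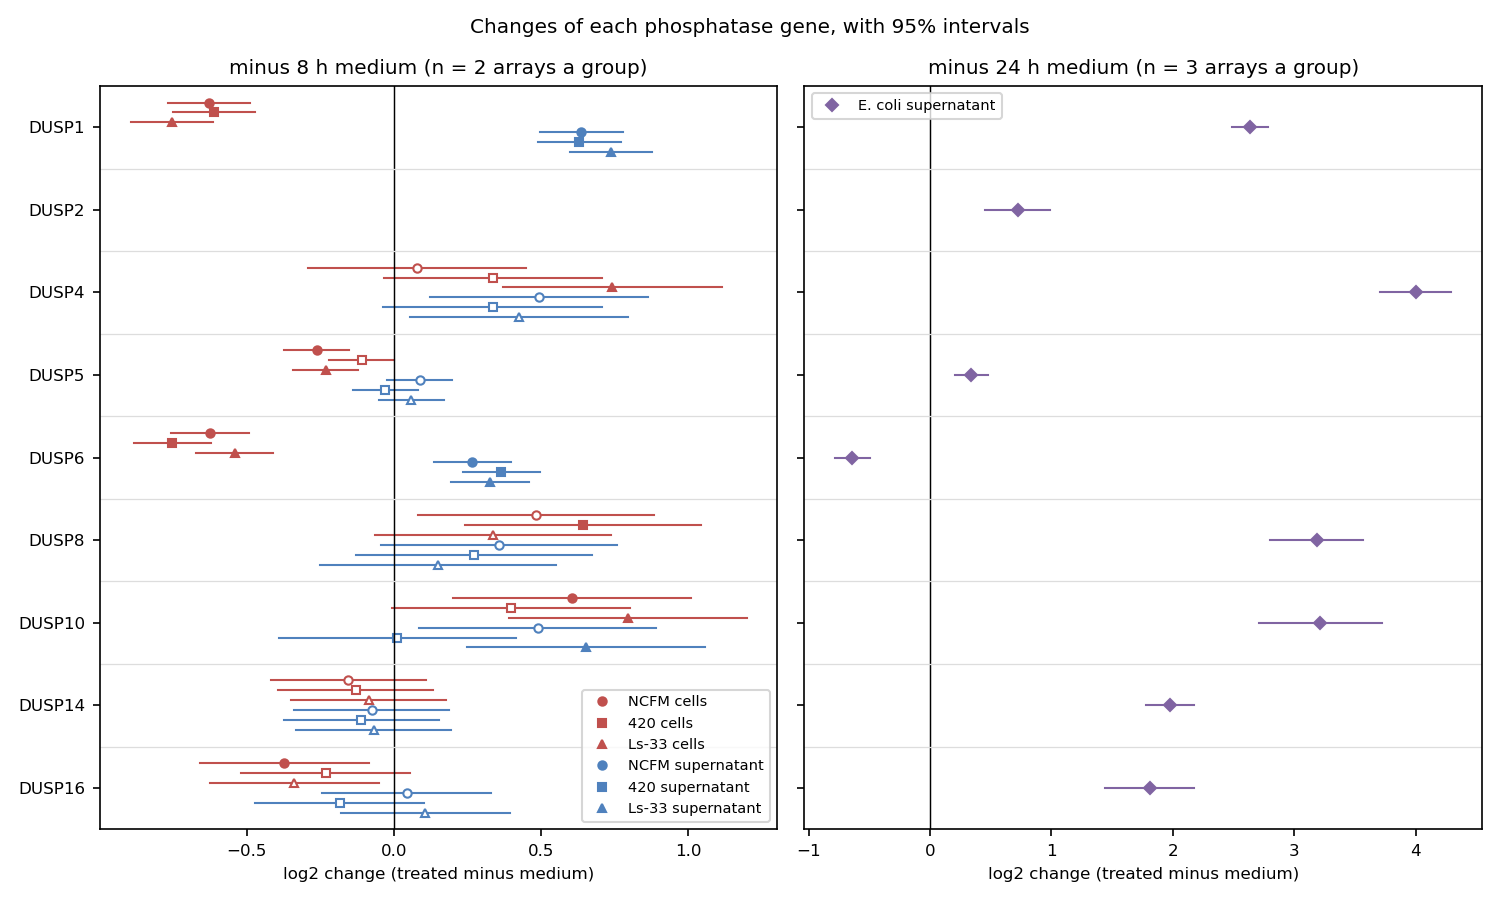
Log2 change of each tested phosphatase (points) with its 95% interval (lines) in co-cultures and probiotic supernatants minus 8 h medium (left) and in E. coli supernatant minus 24 h medium (right); filled points have a limma adjusted p under 0.05, and the horizontal scales of the panels differ. In co-cultures DUSP1 lay between -0.76 and -0.61, in probiotic supernatants between 0.63 and 0.74, and with E. coli supernatant at 2.64.

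Probiotic supernatants at 24 h were compared with the 8 h medium of their array set. On the probe sets tested, DUSP1 and DUSP6 rose with the supernatants of all 3 strains, DUSP10 with that of Ls-33, and no member was called lower. With NCFM supernatant 2 of 8 tested members were called, both higher, where 11.3% of tested genes were called (5.28% higher and 5.98% lower). With 420 supernatant 2 were called, against 15.2% (5.98% higher and 9.2% lower), and with Ls-33 supernatant 3 were called, against 16.6% (8.48% higher and 8.14% lower). The median change of the tested members was 0.31, 0.14 and 0.24, against -0.02, -0.04 and -0.01 over the tested genes. Leaving out 1 array moved the number of genes called by more than 1.5 times. It ran from 489 to 863, against 1336, without either medium or either NCFM supernatant array, and from 771 to 1248, against 1972, without either medium or either Ls-33 supernatant array. With 420 supernatant it was 1079 and 876 without medium replicate 1 or 2 and 789 without supernatant replicate 2, against 1802.

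The 3' minus 5' signal of beta-actin was 1.02 to 1.11 on the probiotic supernatant arrays, against 0.80 to 0.88 in 8 h medium. The summed signal (log2) of the leukocyte, fibroblast and endothelial markers was 12.42 to 12.58, against 12.27 to 12.35, and that of the enterocyte markers 15.74 to 15.77, against 15.67 to 15.73, none of them overlapping. Their part in the changes was not tested.

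DUSP1 read 10.05 and 10.00 with NCFM supernatant, 9.97 and 10.06 with 420 supernatant and 10.14 and 10.11 with Ls-33 supernatant, against 9.41 and 9.36 in 8 h medium (log2). All supernatant arrays lay above the medium arrays. The changes in DUSP1 were 0.64, 0.63 and 0.74 (each ± 0.067 SE; limma adjusted p = 5.09e-06, 5.29e-06 and 4.91e-07), which are 1.56-fold, 1.55-fold and 1.67-fold higher levels. On 201044_x_at DUSP1 changed by 0.70, 0.41 and 0.37, above medium on every array but not called (adjusted p = 0.0509, 0.238 and 0.301).

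DUSP6 read 11.22 and 11.01 with NCFM supernatant, 11.24 and 11.19 with 420 supernatant and 11.18 and 11.17 with Ls-33 supernatant, against 10.84 and 10.86 in 8 h medium (208891_at, log2). The changes in DUSP6 were 0.27, 0.37 and 0.33 (limma adjusted p = 0.00912, 7.18e-04 and 0.00143). The direction rested on this probe set. On 208892_s_at the changes in DUSP6 were 0.02, 0.15 and 0.11, and on 208893_s_at -0.21, -0.06 and -0.13, none of them called. The DUSP6 call with NCFM supernatant was lost without NCFM supernatant replicate 1 (change 0.16, adjusted p = 0.201), without medium replicate 1 or 2 (adjusted p = 0.0577 and 0.0513) and in eBayes without a trend (adjusted p = 0.0852).

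DUSP10 read 3.98 and 4.07 with Ls-33 supernatant, against 3.47 and 3.27 in 8 h medium (log2), and rose by 0.65 (limma adjusted p = 0.0249). The DUSP10 call was lost without any 1 of the 4 arrays compared (adjusted p = 0.0518 to 0.165), and probe set 215501_s_at changed by 0.11 (adjusted p = 0.823). NCFM and 420 supernatants gave changes in DUSP10 of 0.49 and 0.01, neither called. DUSP4 changed by 0.49, 0.34 and 0.43 with NCFM, 420 and Ls-33 supernatant, and none of the changes was called (adjusted p = 0.0789, 0.216 and 0.110). The supernatant arrays all lay above medium, which with so few arrays is only a description. Probe set 226034_at of DUSP4 was called with Ls-33 supernatant (0.51, adjusted p = 0.0462). DUSP5, DUSP8, DUSP14 and DUSP16 were not called with any supernatant on the probe sets tested, and their changes lay between -0.18 and 0.36. One other probe set of DUSP16, 224336_s_at, was called higher with each supernatant (0.65, 0.61 and 0.73; adjusted p = 0.0438, 0.0484 and 0.0174).

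**Figure D3:**
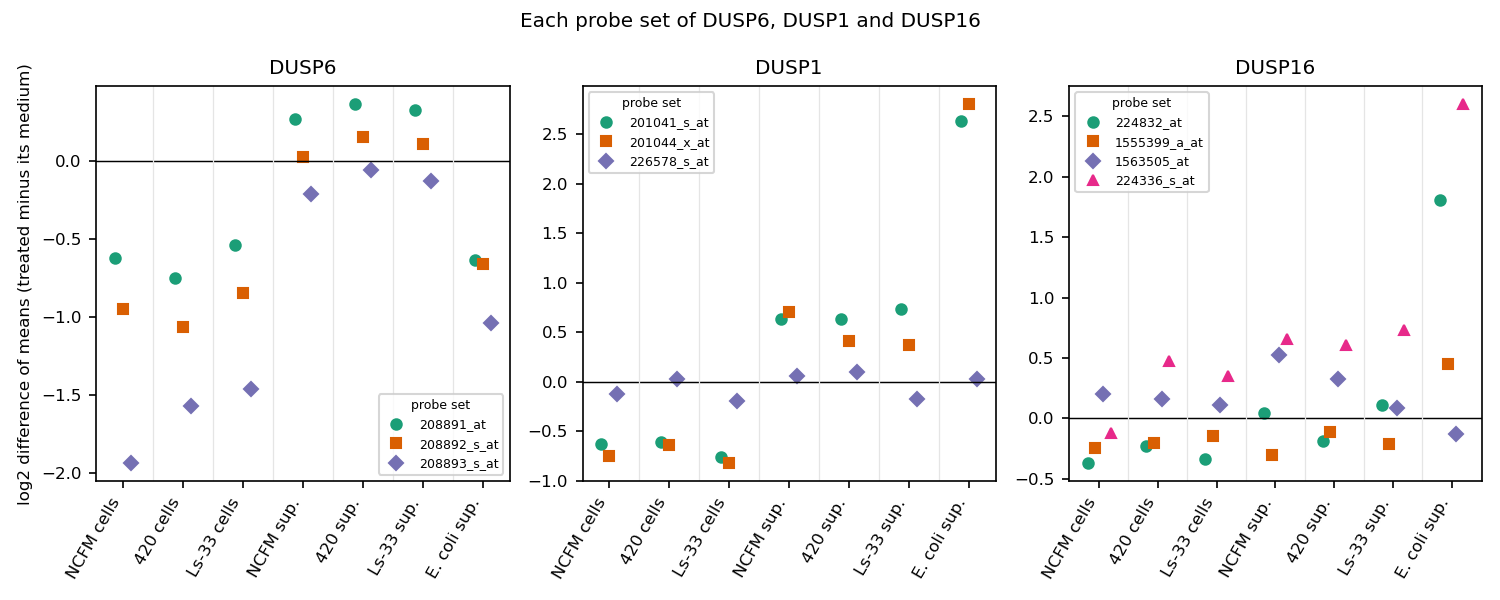
Difference of group means (log2, treatment minus the medium of its array set; vertical ranges differ by panel) for every probe set of DUSP6, DUSP1 and DUSP16 in the 7 treatments. The probe sets of DUSP6 fell together in co-cultures, from -0.54 to -1.94, and lay on both sides of 0 in probiotic supernatants, from -0.21 to 0.37.

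Each co-culture was then set against the supernatant of the same strain, a comparison in which time again differs. DUSP1 was lower in co-culture, with differences of -1.27, -1.24 and -1.49 (log2, NCFM, 420 and Ls-33; limma adjusted p = 1.72e-11, 2.57e-11 and 1.19e-12), and so was DUSP6, with differences of -0.89, -1.12 and -0.87 (adjusted p = 1.44e-09, 4.66e-11 and 2.22e-09). DUSP5 differed by -0.35 with NCFM and -0.29 with Ls-33 (adjusted p = 3.37e-05 and 2.51e-04). DUSP16 differed by -0.42 with NCFM and -0.44 with Ls-33 (adjusted p = 0.0223 and 0.0171). These DUSP16 calls were lost without NCFM co-culture replicate 2 (change -0.20) or NCFM supernatant replicate 2 (-0.30), and without Ls-33 co-culture replicate 1 (-0.39) or Ls-33 supernatant replicate 1 (-0.31). Thus 4, 2 and 4 of 8 members were called, each of them lower, where 36.9%, 37.9% and 33% of tested genes were called in either direction and 18.3%, 15.7% and 16.3% lower. On the probe sets tested, DUSP4, DUSP8, DUSP10 and DUSP14 were not called between co-culture and supernatant of any strain. Probe set 226034_at of DUSP4 was called lower with NCFM (-0.61, limma adjusted p = 0.00591), where the probe set tested differed by -0.42 (adjusted p = 0.0732).

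Across the 7 groups of the probiotic set DUSP1 was lowest with Ls-33 cells (mean 8.63 ± 0.032, SD, n = 2), followed by NCFM cells (8.76 ± 0.0064) and 420 cells (8.77 ± 0.031), whose arrays overlapped. The 8 h medium came next at 9.39 ± 0.031, and then the supernatants of NCFM (10.02 ± 0.035), 420 (10.02 ± 0.059) and Ls-33 (10.12 ± 0.018), the first 2 of which overlapped. DUSP6 shared with DUSP1 the order of co-cultures, medium and supernatants (Pearson r = 0.972 over the 7 group means, a description with arrays in common), but not that of the strains. DUSP6 was lowest with 420 cells (mean 10.10), then NCFM cells (10.22) and Ls-33 cells (10.31), and among the supernatants lowest with NCFM (11.12), then Ls-33 (11.18) and 420 (11.21). The NCFM supernatant arrays, at 11.22 and 11.01, lay on both sides of the Ls-33 supernatant arrays and overlapped those of 420. For DUSP1 and DUSP6 the strain F-test was not called over co-cultures (limma adjusted p = 0.24 and 0.0676) or supernatants (0.822 and 0.867). The 3 tested genes whose group means were most like those of DUSP1 were DERA (r = 0.997), P4HA2 (r = 0.995) and GNRH2 (r = 0.993), and for DUSP6 they were TSPAN2, TMCC1 and LY75 (r = 0.996, 0.996 and 0.994). With 7 points among 11865 genes, such values are to be read as a ranking.

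Strains were compared with each other to ask whether the phosphatases separate them. In the limma F-test over the 3 co-cultures 1 of 8 members was called, DUSP4 (adjusted p = 0.0401), where 13.7% of tested genes were called. The DUSP4 call in this F-test was lost without NCFM co-culture replicate 2, without Ls-33 co-culture replicate 1 or 2, and when just the compared groups were fitted (0 members called in each). DUSP4 read 5.16 and 5.06 with Ls-33 cells, against 4.40 and 4.49 with NCFM cells, a difference of 0.66 ± 0.177 (SE, limma adjusted p = 0.0150), where 14.7% of tested genes were called in this pair and 8.13% of tested genes were called higher. Leaving out NCFM co-culture replicate 1 or Ls-33 co-culture replicate 1 or 2 ended the pairwise call (adjusted p = 0.0762, 0.105 and 0.0541). DUSP4 probe set 226034_at differed by 0.69 (adjusted p = 0.00606) and 204014_at by 0.56 (adjusted p = 0.201). No member was called between 420 and NCFM cells (1 at an unadjusted p under 0.05, with 3.03% of tested genes called) or between Ls-33 and 420 cells (4 unadjusted, 5.58%), where the nearest was DUSP6 with a difference of 0.21 (adjusted p = 0.0535). The F-test over supernatants called none (1 unadjusted, 0.0337% of tested genes), nor did the interaction of strain and format (4 unadjusted, 4.4%). These shares move with single arrays. The genes called between 420 and NCFM cells numbered 234, 159 and 224 without NCFM co-culture replicate 2 or 420 co-culture replicate 1 or 2, against 360. Between Ls-33 and 420 cells they numbered 185 and 412 without 420 co-culture replicate 1 or 2 and 176 and 265 without Ls-33 co-culture replicate 1 or 2, against 662. Without Ls-33 co-culture replicate 1 or 2 they numbered 963 and 1026 between Ls-33 and NCFM cells, against 1742, and 845 and 945 in the F-test over co-cultures, against 1629. In the F-test over supernatants there were 9 without replicate 1 of NCFM or 420 supernatant, against 4. In the interaction, leaving out any 1 array of NCFM supernatant, Ls-33 cells or Ls-33 supernatant gave 262 to 331, against 522. For DUSP1 the difference between Ls-33 and NCFM cells was -0.13, with a 95% interval from -0.27 to 0.01.

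E. coli O157:H7 supernatant was compared with medium at the same 24 h. The 9 tested members were all called, 8 higher and DUSP6 lower, where 64.1% of tested genes were called (36.3% higher and 27.8% lower). DUSP2 and DUSP10 reached the floor only through the E. coli supernatant arrays, since their 24 h medium means lay under it, so they had to differ and add nothing to this count. The 9 changes ran from -0.64 for DUSP6 to 4.0 for DUSP4, and the median change was 1.97 with or without DUSP2 and DUSP10, against 0.05 over all tested genes. The stress kinase phosphatases DUSP8 and DUSP16 rose 9.09-fold and 3.50-fold, and the ERK phosphatases DUSP5 and DUSP6 differed in direction.

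DUSP1 read 11.53, 11.59 and 11.53 with E. coli supernatant, against 8.98, 8.79 and 8.98 in 24 h medium (log2). All treated arrays lay above all medium arrays. DUSP1 rose by 2.64 ± 0.068 (SE), or 6.21-fold (limma adjusted p = 1.00e-10), and its probe set 201044_x_at by 2.81. DUSP4 read 8.82, 8.98 and 8.90 with E. coli supernatant, against 4.94, 4.66 and 5.11 in medium. It rose by 4.0 ± 0.134, or 16.0-fold (95% interval of the log2 change 3.71 to 4.29, limma adjusted p = 6.63e-10), which was the largest change among the members on the probe sets tested. The other probe sets of DUSP4, 204014_at and 226034_at, rose by 3.42 and 2.77. DUSP2 read 3.33, 3.21 and 3.11, against 2.50, 2.52 and 2.45 in medium, a difference of 0.72 on signals near the floor, given as a description. DUSP5 read 10.80, 10.85 and 10.72, against 10.50, 10.48 and 10.36, and rose by 0.34, or 1.26-fold (limma adjusted p = 4.91e-04).

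DUSP6 read 10.59, 10.55 and 10.47 with E. coli supernatant, against 11.07, 11.28 and 11.18 in 24 h medium (208891_at, log2). It was the only member whose treated arrays all lay below medium on the probe sets tested. DUSP6 fell by 0.64 ± 0.065 (SE), or 1.56-fold (limma adjusted p = 3.78e-06). The other probe sets of DUSP6 fell as well, 208892_s_at by 0.66 and 208893_s_at by 1.04.

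DUSP8 read 6.62, 6.54 and 6.34 with E. coli supernatant, against 3.32, 3.00 and 3.62 in 24 h medium (log2), a rise of 3.18 ± 0.176 (SE, limma adjusted p = 2.47e-08). Probe set 238594_x_at of DUSP8 rose by 0.83. DUSP10 read 6.17, 6.41 and 5.32, against 2.74, 2.79 and 2.72 in medium, where its mean was under the floor of 2.78. The difference in DUSP10 was 3.22 as a description, and its probe set 215501_s_at gave 2.90. DUSP16 read 8.38, 8.60 and 8.79, against 7.18, 6.49 and 6.68 in medium. It rose by 1.81 ± 0.167 (limma adjusted p = 1.64e-06), while its other probe sets 224336_s_at, 1555399_a_at and 1563505_at changed by 2.60, 0.45 and -0.13. DUSP14 read 8.86, 8.93 and 8.95, against 6.98, 6.92 and 6.92 in medium, and rose by 1.97 ± 0.091, or 3.93-fold (limma adjusted p = 5.72e-09). DUSP14 was thus called with E. coli supernatant and in no probiotic comparison, a difference between comparisons of separate array sets that was not tested.

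Beside these changes, the 3' minus 5' signal of the GAPDH controls was 0.246 to 0.337 on E. coli supernatant arrays and 0.117 to 0.223 on 24 h medium arrays, and that of beta-actin was 2.12 to 2.22 and 1.90 to 2.17. The summed signal of the 10 leukocyte, fibroblast and endothelial markers was 11.96 to 12.06 (log2) with E. coli supernatant and 12.39 to 12.79 in 24 h medium, and that of the 12 enterocyte markers was 15.46 to 15.50 and 15.65 to 15.66. Their part in the results was not tested.

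Genes listed as ERK pathway outputs were read beside the phosphatases, 17 tested in the E. coli set and 16 in the probiotic set. The Sprouty and SPRED inhibitors, ETS factors and immediate early genes are among them. These are RNA levels, and ERK activity itself was not measured on the arrays. With NCFM, 420 and Ls-33 cells 12, 11 and 9 of 16 were lower, where 18.4%, 16.9% and 19.3% of all tested genes were, and 1 was higher each time, with medians of -0.63, -0.51 and -0.40, against -0.01, 0.01 and -0.01 over the tested genes. With the supernatants of NCFM, 420 and Ls-33, 2, 3 and 5 were higher (5.28%, 5.98% and 8.48% of tested genes) and 1, 0 and 1 lower. With E. coli supernatant 10 of 17 were higher, where 36.3% of tested genes were, and 0 lower (median 0.34, against 0.05).

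EGR1, an immediate early transcription factor, changed by -1.86, -2.14 and -1.80 with NCFM, 420 and Ls-33 cells (limma adjusted p = 2.31e-14, 1.23e-15 and 2.01e-14), and by 0.19 with E. coli supernatant (adjusted p = 0.0515). EPHA2, a receptor tyrosine kinase induced through ERK, changed by -0.82, -0.60 and -0.91 in the co-cultures and rose by 2.08 with E. coli supernatant. IER3, an early response gene, changed by -0.62, 0.15 and -0.31 in the co-cultures (the second not called), rose by 0.43, 0.31 and 0.44 in the probiotic supernatants and by 1.15 with E. coli supernatant. The ephrin receptor EPHA4 was the only listed gene called higher in each co-culture (1.75, 1.75 and 1.64), and it rose by 2.36 with E. coli supernatant.

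**Figure D4:**
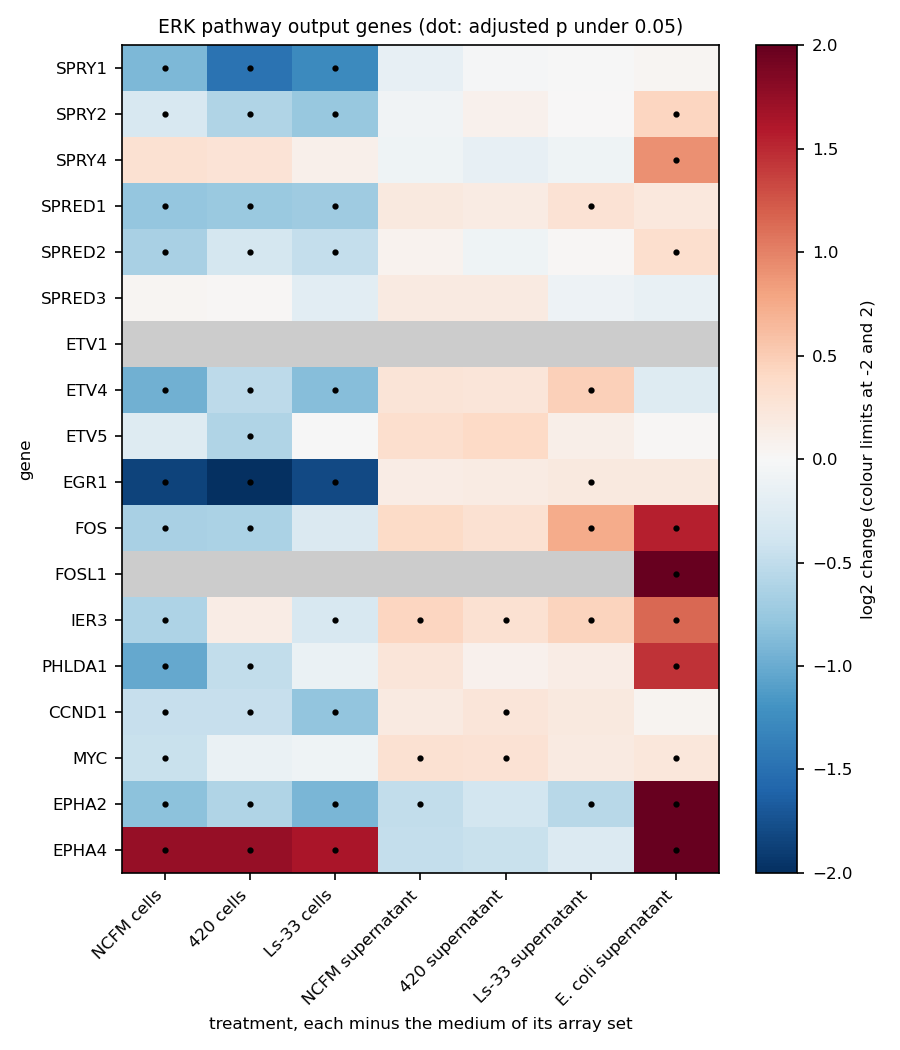
Log2 change (colour, limited at -2 and 2; grey where not tested) of each listed ERK output gene (rows) in each treatment minus the medium of its array set (columns); dots mark a limma adjusted p under 0.05. The co-culture columns hold 12, 11 and 9 genes called lower, and the E. coli column 10 called higher.

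The MAP kinases listed include the substrates of these phosphatases and also atypical members such as NLK. Of the 9 tested, 1, 2 and 2 were higher and 2, 1 and 1 lower with NCFM, 420 and Ls-33 cells. With the supernatants of NCFM, 420 and Ls-33 none was higher and 0, 2 and 1 were lower, and with E. coli supernatant 1 was higher and 2 lower. That is 3 of 9 called in each co-culture, where 35.3%, 35.3% and 38.7% of all tested genes were called, 0, 2 and 1 with the supernatants (11.3%, 15.2% and 16.6%), and 3 with E. coli supernatant (64.1%). These percentages are the background for the kinase lists that follow as well. MAPK3, which encodes ERK1, changed by -0.84, -0.81 and -0.95 in the co-cultures (limma adjusted p = 7.85e-04, 0.00108 and 2.09e-04) and by -1.0 with E. coli supernatant (adjusted p = 3.66e-04), on a probe set that can cross-hybridise. NLK, an atypical MAP kinase, rose by 0.51, 0.41 and 0.41 in the co-cultures. Of 5 MAP kinase kinases, 0, 0 and 1 were higher and 1, 1 and 0 lower in the co-cultures. With the probiotic supernatants 1 was called, higher with NCFM, and 2 were higher and 1 lower with E. coli supernatant. MAP2K1, a kinase that phosphorylates ERK, rose by 0.49 with Ls-33 cells and by 0.69 with E. coli supernatant.

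Of 18 tested kinases in the tier above, 2, 5 and 5 were higher and 4, 3 and 2 lower in the co-cultures, 0, 0 and 2 higher and 1, 1 and 1 lower with the probiotic supernatants, and 7 higher and 2 lower with E. coli supernatant. The 6, 8 and 7 called in the co-cultures are near the background, and the 9 of 18 with E. coli supernatant are a smaller share than the 64.1% of all tested genes. MAP3K14, the kinase NIK of the non-canonical NF-kappaB pathway, rose by 2.81 with E. coli supernatant, and by 0.55 and 0.45 with 420 and Ls-33 cells. MAP3K20, the ribotoxic stress kinase ZAK, changed by -0.69, -0.70 and -0.45 in the co-cultures and rose by 1.47 with E. coli supernatant. Of 11 kinases that MAP kinases activate, 1 was higher in each co-culture and 2, 1 and 1 lower, 0 were higher and 2, 3 and 1 lower with the probiotic supernatants, and 2 were higher and 4 lower with E. coli supernatant. MAPKAPK3, a p38 target kinase, rose by 0.86, 0.79 and 0.53 in the co-cultures and by 1.54 with E. coli supernatant.

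Of the other dual-specificity phosphatases, 20 were tested in the probiotic set and 21 in the E. coli set. In the co-cultures 3, 4 and 2 were higher and 5, 5 and 6 lower, with the probiotic supernatants 0, 0 and 1 higher and 1 lower each time, and with E. coli supernatant 6 higher and 5 lower. The 8, 9 and 8 of 20 called in the co-cultures stand beside 35.3%, 35.3% and 38.7% of all tested genes. The 1, 1 and 2 of 20 with the probiotic supernatants stand beside 11.3%, 15.2% and 16.6%, and the 11 of 21 with E. coli supernatant beside 64.1%. DUSP9, an ERK-preferring cytoplasmic phosphatase close to DUSP6, changed by -0.79, -0.63 and -0.94 in the co-cultures (limma adjusted p = 0.00150, 0.00789 and 2.60e-04) and by -2.28 with E. coli supernatant (adjusted p = 3.91e-07). DUSP19, an atypical phosphatase of the JNK pathway, changed by -0.78, -1.31 and -1.48 in the co-cultures and by -2.50 with E. coli supernatant. CDC25C, which activates the mitotic cyclin-dependent kinase, fell in each of the 7 comparisons, with changes from -1.43 to -0.67. The tyrosine phosphatase PTPRR, which dephosphorylates ERK, rose by 1.75 with E. coli supernatant and by 0.49 and 1.17 with 420 and Ls-33 supernatant.

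Short-lived phosphatase transcripts carry AU-rich elements, so the factors that bind them were also listed. Of 8 tested, 4 were higher and 1 lower in each co-culture, 0, 1 and 2 higher and 0, 0 and 1 lower with the probiotic supernatants, and 3 higher and 3 lower with E. coli supernatant. The 5 of 8 called in each co-culture stand beside 35.3%, 35.3% and 38.7% of all tested genes, the 0, 1 and 3 with the supernatants beside 11.3%, 15.2% and 16.6%, and the 6 with E. coli supernatant beside 64.1%. ZFP36L2, which promotes decay, was the one called lower in each co-culture (-0.30, -0.34 and -0.61) and it fell by 0.40 with E. coli supernatant. ZFP36L1, a close relative, rose by 0.36 and 0.43 with NCFM and Ls-33 cells and by 0.92 with E. coli supernatant. KHSRP rose by 0.23 and 0.22 with NCFM and 420 cells and fell by 0.51 with E. coli supernatant. HNRNPD rose by 0.28 with 420 cells and with Ls-33 cells.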

How the data were processed

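RNA of 20 samples was measured on 1-colour arrays. The authors deposited log2 values per probe set, made with RMA per the submitters' processing notes. Its version is not given in the sources used here, nor whether the array sets were normalized jointly. The platform annotation named 1 gene for 41091 of 54675 probe sets, several for 1801 and none for 11721, and 62 were controls. Each of 19775 genes was read by its probe set of highest mean signal on the 20 arrays, leaving out the suffix _x_at where a gene had others. Genes at or above the 40th percentile were tested (11865 in each set). The number of arrays limits precision. limma 3.58.1 in R 4.3.3 (lmFit, eBayes with a trend, Benjamini-Hochberg adjustment) was fitted over the 14 arrays of the probiotic set (7 groups of 2) and, apart, over the 6 arrays of the E. coli set; the scripts were tested on simulated data. Promoter sequences are RefSeq's. The members and gene lists, with up to 4 genes named from each list by the number of comparisons in which they were called, were chosen with earlier results of these data known. Other settings are given at the end.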

Additional observations from a re-analysis of the deposited data

Results flagged for a closer look

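On the probe sets tested, DUSP1 and DUSP6 went in opposite directions in the 2 formats of every strain. They lay below 8 h medium on all co-culture arrays and above it on all supernatant arrays. They were picked because both changes against medium and the difference between formats were called in limma, so these calls are no further support. The adjusted p-values stand in the report. For DUSP1 co-culture minus supernatant was -1.27 (NCFM), -1.24 (strain 420) and -1.49 (Ls-33), in log2. For DUSP6 it was -0.89, -1.12 and -0.87 in the same order. Co-cultures were sampled at 8 h and supernatants at 24 h, so format and time cannot be told apart in these 6 differences.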

How the results depend on the processing

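Each array was left out once. Other settings were quantile normalization, the replicate number as a block, separate tests of all probe sets, a floor at the 60th percentile or none, a fit of just the compared groups, a joint fit of the 20 arrays (E. coli comparison) and eBayes with no trend. Of 57 member tests against medium 29 were called, and 23 of these kept their call in every alternative that used the same probe set and tested the gene. The other 6 (DUSP10 with NCFM cells, Ls-33 cells and Ls-33 supernatant, DUSP16 with NCFM cells, DUSP6 with NCFM supernatant and DUSP8 with 420 cells) lost it in some, and of 28 not called, DUSP16 with Ls-33 cells gained one when only the groups compared were fitted (adjusted p = 0.0271). The cause was not tested. The 29 and 23 include DUSP2 and DUSP10 with E. coli supernatant. These passed the floor only through the treated arrays, so they had to differ and add nothing to the counts. Over the 7 treatments the share of all tested genes called against medium ran from 11.3% (NCFM supernatant) to 64.1% (E. coli supernatant). The groups share replicate numbers, but same-numbered arrays did not deviate together (correlations of -0.106 to 0.059 over 21 pairs of the probiotic set and -0.140 to 0.034 over 3 pairs of the E. coli set). With the replicate block the number of members called was unchanged in each comparison, for example 5 with NCFM cells and 9 with E. coli supernatant.

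At the 60th percentile, which tests fewer members, 3 were called with Ls-33 cells, 0 between Ls-33 and NCFM cells and 1, DUSP6, between Ls-33 and 420 cells. Without a trend 1 was called with NCFM supernatant. With only the groups compared, the F-test over co-cultures called 0. With every probe set tested, 5 members were called with Ls-33 supernatant, where 10.37% of all probe sets tested were called. In this setting a member counts as called if any of its probe sets is, so members with several have more chances. Leaving out arrays gave 3 to 4 members with NCFM cells, 1 to 2 with NCFM supernatant, 0 to 2 in the F-test over co-cultures, 0 to 1 between Ls-33 and NCFM cells, 0 to 1 between 420 and NCFM cells (DUSP5 without NCFM co-culture replicate 1) and 0 to 1 in the interaction.

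Of 77 changes against medium on probe sets other than the one tested, 23 had the opposite sign. In 14 of these neither probe set was called (7 of DUSP16, 5 of DUSP8 and 2 of DUSP4). The 9 in which 1 was called were DUSP16 on 1563505_at with NCFM cells (0.20) and E. coli supernatant (-0.13), DUSP1 on 226578_s_at with 420 cells (0.0257) and Ls-33 supernatant (-0.18), DUSP8 on 238594_x_at with 420 cells (-0.42), DUSP6 on 208893_s_at with NCFM, 420 and Ls-33 supernatant (-0.21, -0.0571 and -0.13) and DUSP16 on 224336_s_at with 420 supernatant (0.61). Between co-culture and supernatant, DUSP16 turned on 1555399_a_at with NCFM and Ls-33 (0.0527 and 0.0731) and on 1563505_at with Ls-33 (0.0174).

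Over all features, testing each of 24655 probe sets in place of 11865 genes called 7661, against 4186, with NCFM cells, 7042, against 4184, with 420 cells, 7503, against 4591, with Ls-33 cells and 14083, against 7605, with E. coli supernatant. As shares of those tested these are 31.07%, 28.56%, 30.43% and 57.12%, against 35.28%, 35.26%, 38.69% and 64.1%, so each share was lower. In the F-test over co-cultures 3076 were called, against 1629 (12.48%, against 13.73%).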
